A study of Mus musculus with 8 samples.

Results

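The genes described here are those of the major histocompatibility complex (MHC) class I molecule that could be followed in 8 mouse tumours: the heavy chains H2-K1, H2-D1, H2-Q4, H2-Q6, H2-Q7, H2-T22 and H2-T23 and the light chain B2m. They were found by their symbols in the deposited gene table, where they make up 8 of 55450 genes, and all 8 passed the filter on low counts that left 16911 genes for testing. The tumours were grown in the flank of C57BL/6 mice from MOC1, an oral squamous carcinoma line of this strain. Every mouse received anti-PD-1, an antibody that blocks the T cell checkpoint PD-1, and all 8 samples are labelled day 32. In 5 mice anti-PD-1 was combined with antisense oligonucleotides (ASOs) directed at Smyd3, a lysine methyltransferase, and in 3 mice with control ASOs. Of the 5 Smyd3 ASO tumours the labels call 2 responders (numbered 1 and 3) and 2 non-responders (not numbered, called 1 and 2 here in the order listed), and 1 tumour, number 2, has no response mark. No untreated tumour and no tumour without anti-PD-1 is in the set, and whole tumours with their host cells were sequenced as polyA RNA.

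An MHC class I molecule is a heavy chain held together with beta-2-microglobulin, and it carries a short peptide from inside the cell to the surface, where CD8 T cells read it. C57BL/6 mice have the H-2b haplotype, whose classical, highly polymorphic chains are encoded by H2-K1 and H2-D1. The Q and T regions next to them encode non-classical chains: H2-Q7 encodes a Qa-2 antigen, H2-T23 encodes Qa-1, which is read by the inhibitory receptor CD94/NKG2A on natural killer cells and some T cells, and H2-T22 is bound by some gamma-delta T cells. Interferon gamma and the transactivator NLRC5 are the best known inducers of these genes, and loss of class I is a known way for tumours to evade T cells.

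In the mm10 build with GENCODE M21 annotation all 7 heavy chain genes lie on chromosome 17 and are protein coding. H2-K1 (ENSMUSG00000061232.16) spans chr17:33996017-34000347 on the minus strand. H2-D1 (ENSMUSG00000073411.11) spans chr17:35262730-35267499, H2-Q4 (ENSMUSG00000035929.11) chr17:35379617-35385290, H2-Q6 (ENSMUSG00000073409.12) chr17:35424850-35430055 and H2-Q7 (ENSMUSG00000060550.16) chr17:35439155-35443773, all on the plus strand. H2-T23 (ENSMUSG00000067212.8) at chr17:36029773-36032855 and H2-T22 (ENSMUSG00000056116.18) at chr17:36037128-36042747 are neighbours on the minus strand. B2m (ENSMUSG00000060802.8) lies apart from the complex, at chr2:122147686-122153083 on the plus strand.

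The promoters show how the 8 genes resemble each other before any expression value is considered. RefSeq promoter sequences (build GRCm38.p6, 250 bases before to 50 after the start of transcription) were found for all 8 genes, with 2 entries for H2-K1, of which the first was used. The stretch with the matches is shown for each gene, 5′ to 3′ on the strand of the gene. Capitals mark a kappaB-type match (GGGANTNCC), an interferon-stimulated response element (ISRE)-type match (GAAA, 2 bases of any kind and GAAA, on either strand), and the run AGTTTCACTT.
H2-K1, chr17:34000424-34000461, minus strand: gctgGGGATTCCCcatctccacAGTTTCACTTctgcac
H2-D1, chr17:35262920-35262957, plus strand: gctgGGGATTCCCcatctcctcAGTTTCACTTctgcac
H2-Q4, chr17:35379440-35379477, plus strand: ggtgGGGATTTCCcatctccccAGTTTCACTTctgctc
H2-Q6, chr17:35424674-35424711, plus strand: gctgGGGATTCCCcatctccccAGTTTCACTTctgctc
H2-Q7, chr17:35439019-35439055, plus strand: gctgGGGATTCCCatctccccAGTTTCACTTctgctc
H2-T22, chr17:36042910-36042947, minus strand: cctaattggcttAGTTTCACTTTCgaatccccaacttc
H2-T23, chr17:36032802-36032839, minus strand: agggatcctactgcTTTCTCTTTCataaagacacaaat
B2m, chr2:122147534-122147571, plus strand: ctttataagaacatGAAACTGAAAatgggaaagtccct

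The K, D and Q chains thus carry a kappaB-type match a few bases upstream of AGTTTCACTT, while H2-T22, H2-T23 and B2m carry an ISRE-type match and no kappaB-type match in this window. Only exact matches were counted, so the K, D and Q promoters are not shown to lack an ISRE. H2-T22 has both the run AGTTTCACTT and an ISRE-type match, which overlap. Both strands were searched, and of all 32851 mouse promoters of this length, 3.95% held a kappaB-type match, 3.44% an ISRE-type match and 0.14% the 10-base run. The run was found by comparing these promoters, and the choice of the 6 that share it was made after their sequences were seen. CCAAT, the letters of the CCAAT box, occurred in all 8 promoters and in 37.4% of all promoters. TGACG, the core of a cyclic AMP response element, occurred in 6 of the 8 (not in H2-Q6 or H2-T23) and in 20.8% of all. The letters TTCNNNGAA, the gamma-activated site of interferon gamma responses, were in none of the 8 windows and in 8.30% of all promoters. These matches are letters in a fixed window and are not shown to be sites of binding in these tumours.

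The libraries held 22103853 to 27258700.1 expected counts, and the 8 genes together took 0.656% to 1.19% of them in Smyd3 ASO tumours and 0.582% to 0.787% in control tumours. Smyd3, the ASO target, stood at 8.68, 4.38, 4.58, 9.26 and 4.88 CPM (counts scaled to library size, with TMM factors) in responders 1 and 3, the unmarked tumour and non-responders 1 and 2, against 10.7, 11.9 and 10.6 CPM in control tumours. No Smyd3 ASO tumour reached a control, although Smyd3 did not pass the edgeR test over all genes (log2 fold change −0.80, SE 0.29, FDR 0.246). Keratinocyte transcripts (Krt5, Krt14, Krt6a, Trp63, Dsp and Cdh1) were abundant in every tumour, with summed levels of 18968 to 40317 CPM in Smyd3 ASO tumours and 28656 to 34216 CPM in control tumours. In bulk RNA, fewer cells of a type and less RNA per cell cannot be told apart, and class I genes are transcribed by tumour, stromal and immune cells alike.

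Per length, the order of the 8 genes was nearly the same in both arms. CPM divided by the kilobases of all annotated exons gave B2m 3185 ± 594 CPM per kb in Smyd3 ASO tumours (SD, n = 5) and 2298 ± 252 CPM per kb in control tumours (SD, n = 3). The classical chains followed, H2-K1 with 988 ± 214 CPM per kb in Smyd3 ASO tumours and 654 ± 76.3 in control tumours, and H2-D1 with 884 ± 174 CPM per kb in Smyd3 ASO tumours and 651 ± 46.7 in control tumours. The B2m range lay above that of H2-K1 in each arm, whereas H2-K1 and H2-D1 overlapped.

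The non-classical chains formed a second tier, well below H2-D1. Their mean levels in Smyd3 ASO tumours were 184 CPM per kb for H2-Q4, 175 for H2-Q7, 171 for H2-T23, 137 for H2-T22 and 133 for H2-Q6. In control tumours they were 117, 110, 101, 67.8 and 101 CPM per kb for the same genes in the same order. Neighbours within this tier overlapped in both arms, so their order is not fixed, and H2-Q7 moved to the top of the tier when the coding length was used instead. Among 21951 protein-coding genes B2m ranked between 4 and 8 in the Smyd3 ASO tumours and between 6 and 8 in the control tumours, and the lowest rank of any of the 8 genes in any tumour was 877, held by H2-Q6. With the coding length the lowest rank of H2-Q6 was 1144 in Smyd3 ASO tumours and 1591 in control tumours.

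Because heavy chain genes are close copies, the counting tool had to divide some reads between them. Expected counts of all 7 heavy chains were not whole numbers in any of the 8 libraries, whereas those of B2m were whole in all 8. The read length is not given in the sources used here, so shared sequence was measured at 2 lengths. Of the stretches of 100 bases in the annotated transcripts, 99% for H2-K1 and 96.4% for H2-D1 occurred in no other gene. The share was 97.8% for H2-Q4, 96.9% for H2-T23, 91.1% for H2-T22, 89.2% for H2-Q6, 88.0% for H2-Q7 and 100% for B2m. Of stretches of 50 bases the share was 90.4% for H2-K1, 87.2% for H2-D1, 86.4% for H2-T23, 78.2% for H2-Q4, 73.6% for H2-Q7, 68.0% for H2-Q6, 65.5% for H2-T22 and again 100% for B2m. At both lengths H2-Q6 shared most with H2-Q7, H2-Q7 with H2-Q10 and H2-T22 with H2-T10, the last at 31.3% of its stretches of 50 bases. H2-Q6 made up 23.8% to 32.4% of the sum of H2-Q6 and H2-Q7 across tumours. Values of H2-Q6, H2-Q7 and H2-T22 are therefore less certain than those of the other members, and a sum of H2-Q6 and H2-Q7 takes away only the division between these 2 genes.

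**Figure D1:**
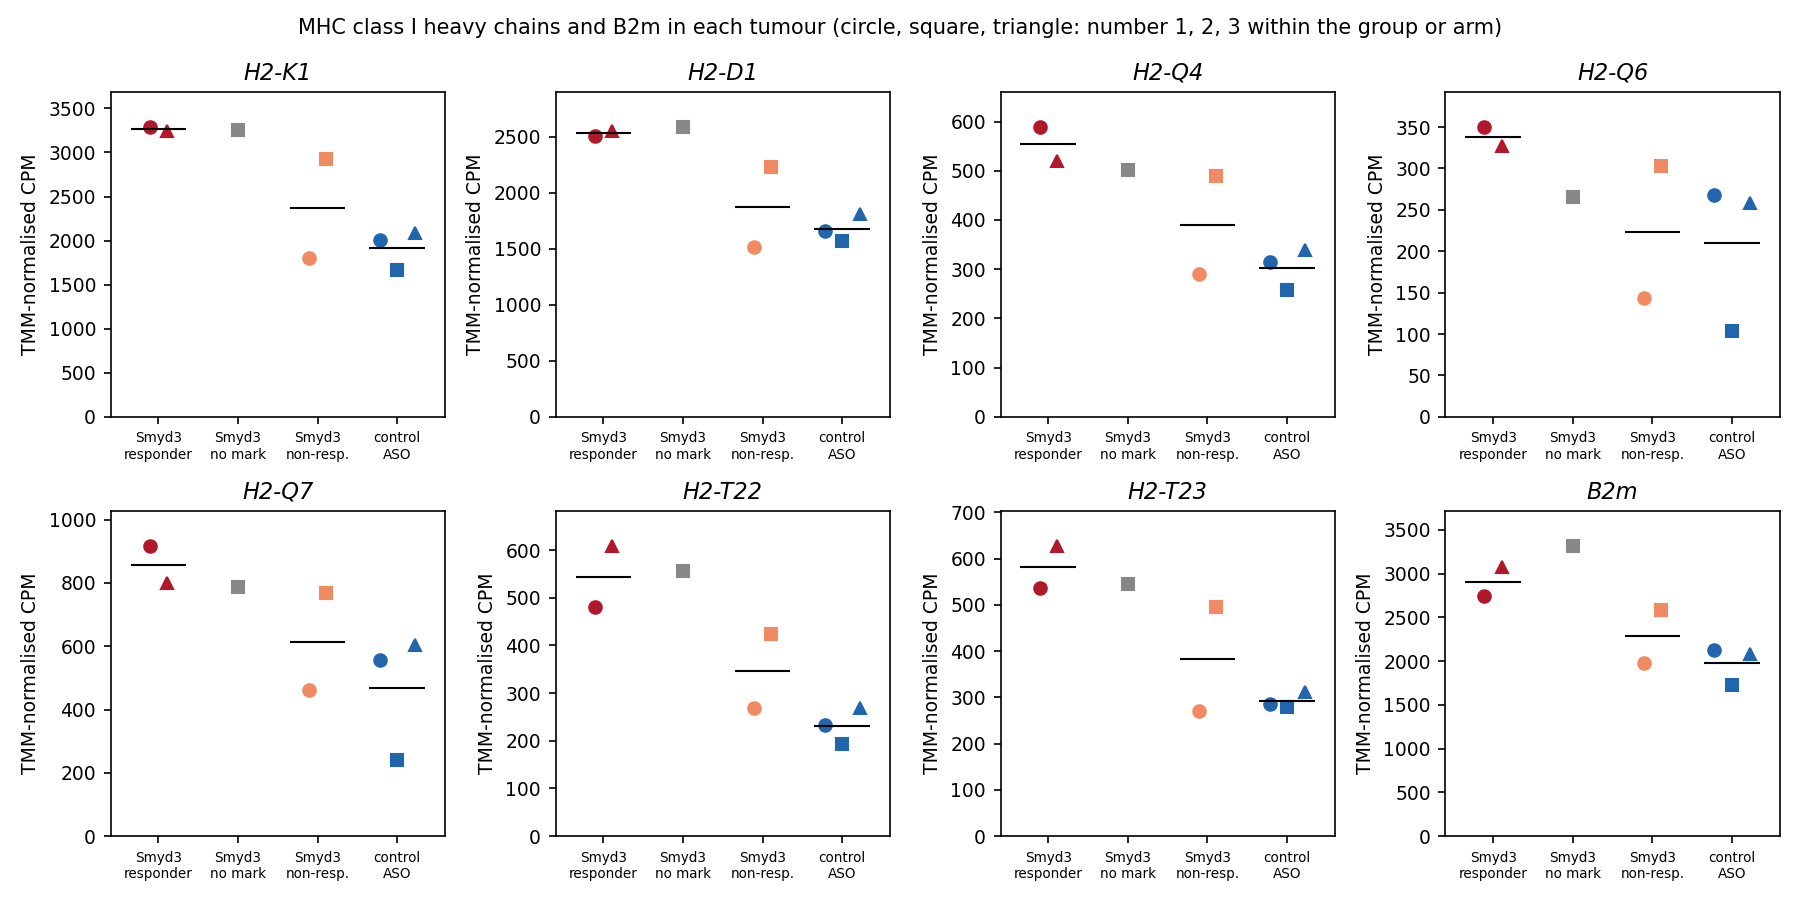
TMM-normalised CPM (y axis, from 0) of each gene in each of the 8 tumours, by group on the x axis, with Smyd3 ASO groups left of control ASO. Points are tumours and bars are means of groups with more than 1 tumour. Responders 1 and 3, the unmarked tumour and non-responder 2 lie high for most genes, and non-responder 1 (1807 CPM for H2-K1) lies among the controls.

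The comparison of Smyd3 ASO with control ASO asked how class I transcripts differ between the arms under the same anti-PD-1 treatment. All 8 genes were higher on average in Smyd3 ASO tumours, by 1.33 times (H2-Q6) to 2.02 times (H2-T22), and all 8 log2 fold changes were above 0, as were 51.8% over all genes. None of the 8 passed the threshold of 0.05 on the false discovery rate (FDR) in edgeR's quasi-likelihood test, and neither did any of the 16911 genes (0% called). At an unadjusted p under 0.05, 6 of the 8 were higher, against 8.55% of all genes, and their median log2 fold change was 0.63 against 0.013 over all genes. The difference did not extend to every tumour, since non-responder 1 lay within or below the range of the control tumours for 7 of the 8 genes and hardly above it for H2-T22.

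Among the classical chains, H2-K1 stood at 3291 and 3243 CPM in responders 1 and 3, 3250 CPM in the unmarked tumour and 1807 and 2925 CPM in non-responders 1 and 2, against 2007, 1666 and 2089 CPM in the control tumours. Every Smyd3 ASO tumour except non-responder 1 therefore exceeded every control, and non-responder 1 lay between the controls. The log2 fold change was 0.60 (SE 0.21, edgeR FDR 0.225). H2-D1 showed the same layout, with 2508, 2554, 2588, 1516 and 2229 CPM in Smyd3 ASO tumours listed in that order, against 1661, 1570 and 1808 CPM in control tumours. Non-responder 1 was below all 3 controls for H2-D1, and the log2 fold change of 0.44 (SE 0.18, edgeR FDR 0.289) was the second smallest of the 8.

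H2-T22 had the largest difference. It was measured at 480, 609, 557, 269 and 424 CPM in responders 1 and 3, the unmarked tumour and non-responders 1 and 2, against 232, 193 and 269 CPM in the control tumours. Its groups did not overlap, which held for 5.45% of all genes in this direction, but only just: non-responder 1 had 268.94 CPM and control 3 had 268.85 CPM. The log2 fold change was 1.02 (SE 0.25, edgeR FDR 0.130). An exact permutation test over the 56 divisions of the tumours into 5 and 3 gave a two-sided p of 0.0357, the smallest it can give. Any gene whose arms do not overlap receives this p, so it restates the separation and adds no support.

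H2-T23, the Qa-1 chain, had 536, 627, 545, 271 and 495 CPM in Smyd3 ASO tumours in the same order, against 285, 279 and 312 CPM in control tumours. Here 4 of 5 Smyd3 ASO tumours exceeded all controls while non-responder 1 was below all of them, with a log2 fold change of 0.76 (SE 0.24, edgeR FDR 0.196). H2-Q4 had 589, 520, 502, 290 and 490 CPM in Smyd3 ASO tumours, against 314, 257 and 338 CPM in control tumours. Its log2 fold change was 0.66 (SE 0.22, edgeR FDR 0.209), and again only non-responder 1 overlapped the controls.

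H2-Q7 and its neighbour H2-Q6 had 1 control tumour that stood apart. H2-Q7 stood at 917, 799, 786, 460 and 768 CPM in Smyd3 ASO tumours and at 557, 242 and 602 CPM in control tumours 1, 2 and 3. H2-Q6 stood at 350, 327, 265, 144 and 303 CPM in Smyd3 ASO tumours and at 268, 103 and 258 CPM in control tumours. Control 2 was thus far below controls 1 and 3 for both genes, and for H2-Q6 controls 1 and 3 lay near the unmarked Smyd3 ASO tumour. The log2 fold changes were 0.67 (SE 0.32, edgeR FDR 0.353) for H2-Q7 and 0.41 (SE 0.36, edgeR FDR 0.638) for H2-Q6. Without control 2 they were 0.38 and 0.096. With the pair summed to 1 feature, the log2 fold change was 0.60 (edgeR FDR 0.423).

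B2m, the light chain that all these heavy chains need, had 2741, 3076, 3315, 1982 and 2583 CPM in Smyd3 ASO tumours, against 2124, 1728 and 2077 CPM in control tumours. Non-responder 1 was inside the control range and the other 4 lay above it, with a log2 fold change of 0.47 (SE 0.17, edgeR FDR 0.257). The exact permutation p of the 7 genes other than H2-T22 lay between 0.107 and 0.286.

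These counts depended on single tumours. Without non-responder 1, H2-K1, H2-D1, H2-Q4, H2-T22 and H2-T23 passed the FDR threshold in edgeR, along with 258 genes in all. Without control 2, 2 of the 8 kept an unadjusted p under 0.05 in edgeR, against 5 without control 1 and 5 without control 3. The share of all genes at that p was not computed for these settings, so a general loss of power cannot be told apart. DESeq2, a second count model, called H2-Q4, H2-T22 and H2-T23 on the full set, among 1053 genes.

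**Figure D2:**
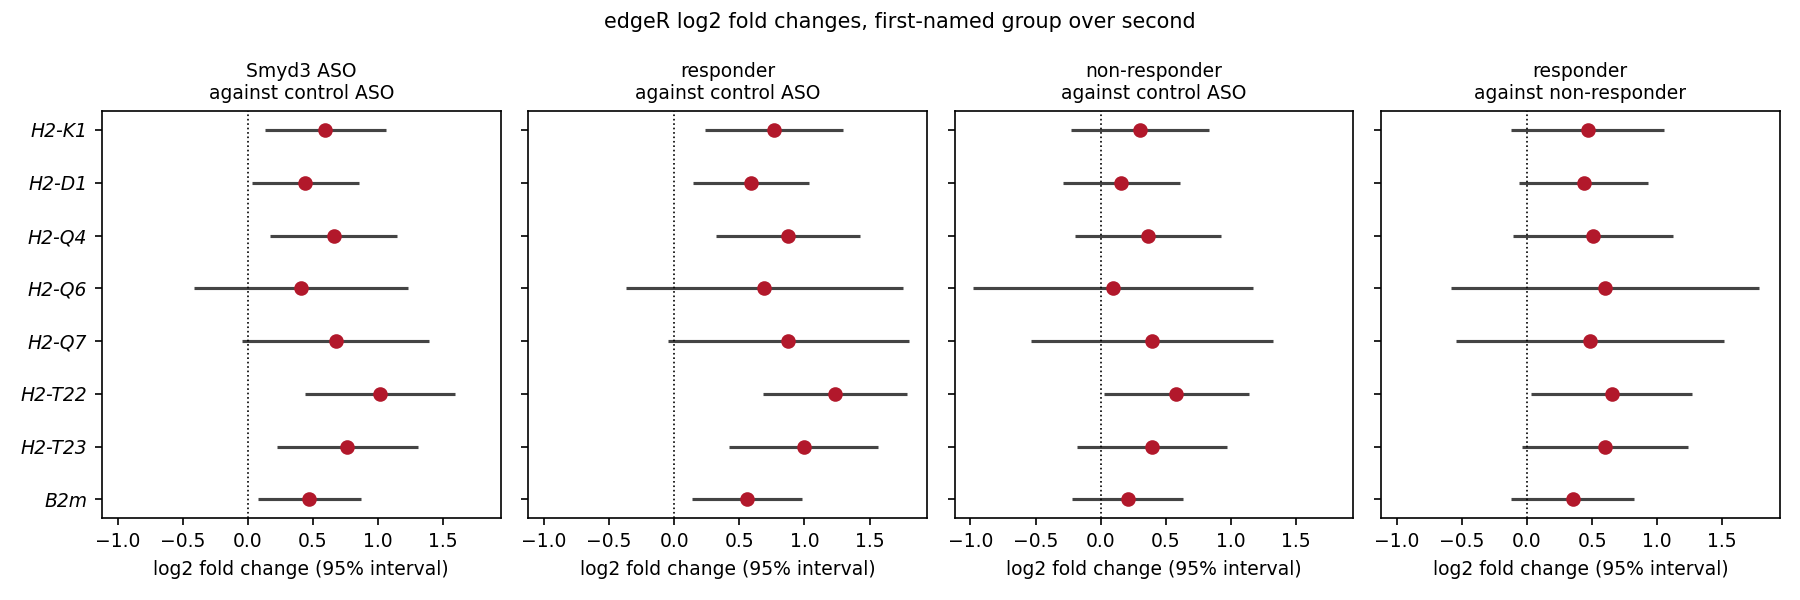
edgeR log2 fold changes (x axis) of the 8 genes (y axis) in 4 comparisons, first-named group over second, with 95% intervals as lines and estimates as points. All estimates lie above 0, from 0.092 (H2-Q6, non-responder against control ASO) to 1.23 (H2-T22, responder against control ASO), and the intervals of H2-Q6 and H2-Q7 are the widest.

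Within the Smyd3 ASO arm, the responders were set against the non-responders. These groups were formed by outcome, not by assignment, and hold 2 tumours each. In all 8 genes both responders lay above both non-responders, which was the case for 20.3% of all genes in this direction. None passed the FDR threshold, nor did any other gene (0% called), and the median log2 fold change was 0.50. All 8 log2 fold changes were above 0, as were 51.6% over all genes. H2-T22 had 480 and 609 CPM in responders, against 269 and 424 CPM in non-responders. Its log2 fold change was 0.65 (SE 0.26, edgeR FDR 0.575), and it was the only one of the 8 with an unadjusted p under 0.05, which 4.74% of all genes had in this direction. For B2m, at the other end, the estimate was 0.35 (SE 0.20, edgeR FDR 0.657).

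Within the pair of non-responders the values were far apart. For H2-K1 the responders had 3291 and 3243 CPM, while the non-responders had 1807 and 2925 CPM. Non-responder 2 was closer to the mean of the responders than to non-responder 1 for all 8 genes. Leaving out 1 tumour of a pair leaves a lone tumour, which is then assumed to vary as the tumours of the other groups do. For this reason only effect sizes are given for these fits. The log2 fold change of H2-K1 was 0.84 without non-responder 2, 0.16 without non-responder 1 and 0.48 without responder 3. For H2-T22 it was 1.01, 0.36 and 0.48 in the same order. The same tumours also differed in other ways: summed keratinocyte markers were 18968 to 22239 CPM in responders and 23425 to 40317 CPM in non-responders, and summed skeletal muscle markers 1775 to 9164 CPM in responders and 525 to 782 CPM in non-responders. T cell markers summed to 46.4 to 97.9 CPM in responders and 18.5 to 35.5 CPM in non-responders, with all 6 separated, and cytotoxic markers to 57.6 to 137 CPM in responders and 26.4 to 50.7 CPM in non-responders, with 4 of 5 separated. B cell markers summed to 5.27 to 11.4 CPM in responders and 1.01 to 3.14 CPM in non-responders, with all 4 separated, against the 20.3% of all genes. The part of these differences in the class I result was not tested.

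Responders and non-responders were each set against the control tumours as well. Since both comparisons use the same 3 controls, their values are given side by side and no agreement between them is read. In responders against control ASO, 1.66% of all genes passed the FDR threshold and none of the 8 did. H2-T22 came closest, with 480 and 609 CPM in responders against 232, 193 and 269 CPM in control tumours (log2 fold change 1.23, SE 0.24, edgeR FDR 0.0569). H2-T23 followed with 0.996 (SE 0.24, edgeR FDR 0.105).

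In that comparison 6 of the 8 genes had an unadjusted p under 0.05, as did 9.62% of all genes in this direction, and all 8 had groups that did not overlap, against 18.8% of all genes. The median log2 fold change was 0.82, with all 8 above 0, as were 50.4% over all genes. H2-K1 gave 0.77 (SE 0.22), H2-D1 0.59 (SE 0.19), H2-Q4 0.87 (SE 0.24) and B2m 0.56 (SE 0.18), while H2-Q7 gave 0.88 (SE 0.39) and H2-Q6 0.69 (SE 0.45), with wider errors. With non-responder 1 or 2 left out of the shared estimate of spread, the log2 fold change of H2-T23 was 0.995 or 0.985. DESeq2 called 6 of the 8, among 1153 of 16911 genes called, against 280 genes in the main test.

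In non-responders against control ASO none of the 8 genes passed, nor did any gene tested (0% called), and the median log2 fold change was 0.33, with all 8 above 0, as were 51.1% over all genes. H2-T22 had 269 and 424 CPM in non-responders against 232, 193 and 269 CPM in control tumours, a log2 fold change of 0.58 (SE 0.24, edgeR FDR 0.523). It was the single gene of the 8 with an unadjusted p under 0.05 (5.1% of all genes) and with groups that did not overlap (12.2% of all genes). Estimates for the other 7 ran from 0.092 (H2-Q6) to 0.39 (H2-Q7 and H2-T23). They rest on non-responder 2: without it 6 of the 8 turned negative, down to −0.55 for H2-Q6, while H2-T22 was at 0.22. Without non-responder 1 the estimates of the 8 genes ran from 0.39 (B2m) to 0.87 (H2-T22), again from a lone tumour. The test of responders against non-responders given above is the test of the difference between these comparisons, and none of the 8 passed it.

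Beside their level, the make-up of the heavy chains was compared. Levels of the 5 non-classical chains summed to 44.7 and 44.9 per 100 of the 2 classical chains in responders, 40.6 in the unmarked tumour and 38.3 and 43.5 in non-responders, against 41.2, 30.5 and 41.2 in control tumours (CPM per kb). Apart from control 2, all tumours lay between 38.3 and 44.9, with arms that overlapped. B2m amounted to 105 to 138 per 100 of the summed heavy chains in Smyd3 ASO tumours and 121 to 132 in control tumours. These ratios are given as descriptions, with no test.

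Relative to H2-K1, H2-T22 was the one chain whose proportion did not overlap between the arms. H2-T22 stood at 12.6 and 16.1 per 100 of H2-K1 in responders, 14.7 in the unmarked tumour and 12.8 and 12.5 in non-responders, against 9.95, 9.97 and 11.1 in control tumours. Every Smyd3 ASO tumour lay above every control, non-responder 1 included, in which H2-K1 itself was low. H2-Q4 by comparison stood at 17.5 to 20.3 in Smyd3 ASO tumours and 17.4 to 18.3 in control tumours. H2-T23 stood at 15.3 to 19.7 in Smyd3 ASO tumours and 14.4 to 17.0 in control tumours. The counts of H2-T22 are among those less certain because of shared sequence, and such ratios were not computed over all genes.

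H2-Q6 stood at 15, 14.2, 11.5, 11.2 and 14.6 per 100 of H2-K1 in responders 1 and 3, the unmarked tumour and non-responders 1 and 2, against 18.8, 8.72 and 17.4 in control tumours 1, 2 and 3. All 5 Smyd3 ASO tumours were thus below controls 1 and 3 and above control 2. H2-Q7 stood at 16.6 to 19.2 in Smyd3 ASO tumours and at 19.1, 10.004 and 19.9 in the control tumours. Control 2 was low in this pair but not in H2-D1, where it had the highest ratio of all tumours at 107.

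**Figure D3:**
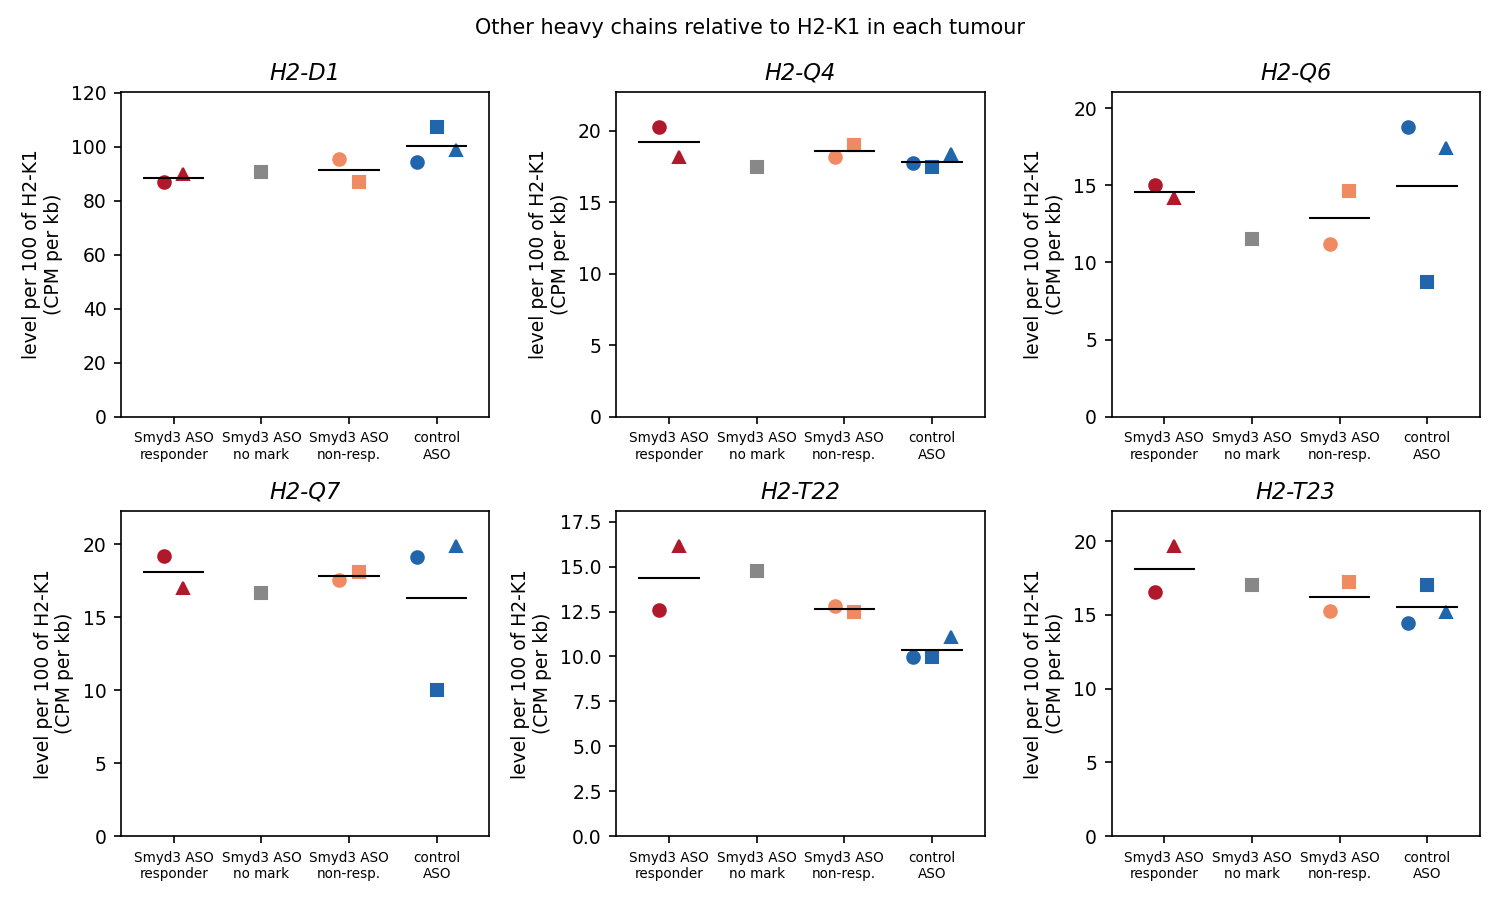
Level of each other heavy chain per 100 of H2-K1 (y axis, from CPM per kb, starting at 0) in each tumour, with Smyd3 ASO groups left of control ASO on the x axis. Points are tumours and bars are group means. H2-T22 lies at 12.5 to 16.1 in Smyd3 ASO tumours and 9.95 to 11.1 in control tumours, and control 2 is the lowest point for H2-Q6 (8.72) and H2-Q7 (10.004).

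Profiles across the 8 tumours were compared as root-mean-square differences of log2 CPM, each gene centred on its own mean, as a description with no test. H2-K1 and H2-Q4 were the closest pair with 0.067, and the 15 pairs among the genes other than H2-Q6 and H2-Q7 lay between 0.067 and 0.30. H2-Q6 and H2-Q7 differed from each other by 0.19 and from the other 6 by 0.27 to 0.43. These profiles share libraries and, for the heavy chains, some reads. H2-T22 was nearest to H2-T23 (0.17) and farther from H2-D1 (0.30) and B2m (0.29).

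Of the 10993 genes whose mean log2 CPM reached 3, and leaving out the 8 class I genes themselves, those nearest to H2-K1 were Ly75 (0.11), a dendritic cell endocytic receptor also called DEC-205, H2-K2 (0.12), a further gene of the K region, the interferon-inducible Mndal (0.12), Trafd1 (0.13) and Asb13 (0.13). The nearest to H2-T23 were H2-K2 (0.092), Mndal (0.093), the proteasome activator subunit Psme1 (0.10), Parp9 (0.10) and Gatm (0.11). Near B2m lay Ogfr (0.092), Dynlt1c (0.10), Mitd1 (0.11) and Rnf114 (0.11). H2-Q7 had no neighbour as near: H2-T10 came first with 0.15, then Ifih1, a sensor of viral RNA, with 0.18, Stk39 with 0.19, Marveld2 with 0.21 and Ifi35 with 0.22.

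The rest of the class I pathway was followed through gene lists. Of 25 other heavy chain genes 9 passed the filter on low counts, and 8 of these 9 lay above 0 in Smyd3 ASO against control ASO, with a median log2 fold change of 0.70. None passed the FDR threshold, and 6 were higher at an unadjusted p under 0.05, against 8.55% of all genes. H2-Q2 had 3.03 ± 1.15 CPM in Smyd3 ASO tumours (SD, n = 5) and 0.781 ± 0.232 CPM in control tumours (SD, n = 3), with a log2 fold change of 1.95 (edgeR FDR 0.0962). H2-M3, which presents formylated peptides, had 31.5 ± 8.66 CPM in Smyd3 ASO tumours and 17.7 ± 4.23 CPM in control tumours (0.84, edgeR FDR 0.197). H2-K2 had 10.1 ± 2.33 CPM in Smyd3 ASO tumours and 6.22 ± 0.381 CPM in control tumours (0.70, edgeR FDR 0.206).

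Control 2 was low in further genes of the complex, named here after their values were seen. H2-Q5 stood at 13.5 to 42.1 CPM in Smyd3 ASO tumours and at 33.6, 14.6 and 35.3 CPM in control tumours 1, 2 and 3. H2-T10 stood at 21.5 to 46.8 CPM in Smyd3 ASO tumours and at 23.5, 12.4 and 26.0 CPM in the control tumours. Control 2 also had the highest marker sums of the 3 controls for leukocytes (401 CPM), macrophages (846 CPM) and fibroblasts (8248 CPM, against 4800 and 5049 CPM in controls 1 and 3), and their part in these values was not tested.

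Class I-like molecules encoded outside the complex leaned less to one side. Of 11 tested among 14, 4 lay above 0 and the median log2 fold change was −0.15. H60c, a ligand of the activating receptor NKG2D, had 5.87 ± 4.30 CPM in Smyd3 ASO tumours and 1.71 ± 1.37 CPM in control tumours (log2 fold change 1.77, edgeR FDR 0.284). Mill2 and Mill1 had −0.62 (edgeR FDR 0.473) and −0.58 (edgeR FDR 0.519).

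Genes of peptide supply and loading lay above 0 in 13 of 13 cases, with a median log2 fold change of 0.74. None passed the FDR threshold between the arms. An unadjusted p under 0.05 was found for 10, against 8.55% of all genes in this direction, and in 7 the arms did not overlap, against 5.45%. Erap1, which trims peptides in the endoplasmic reticulum, had 98.3 ± 11.4 CPM in Smyd3 ASO tumours and 63.2 ± 5.23 CPM in control tumours (0.64, edgeR FDR 0.091). The immunoproteasome subunits Psmb10 and Psmb9 had 104 ± 30.3 and 192 ± 49.7 CPM in Smyd3 ASO tumours, against 44.4 ± 2.76 and 86.2 ± 9.72 CPM in control tumours, with log2 fold changes of 1.22 and 1.15 (edgeR FDR 0.0939 for both). For Psmb9 non-responder 1 had 112 CPM and the highest control 96.6 CPM, so that this tumour lay above all 3 controls.

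In responders against control ASO, 6 of these 13 genes passed the FDR threshold, against 1.66% of all genes in either direction, all 6 higher: Psme2, Psmb10, Psmb9, Tap1, Psmb8 and Erap1. Psmb9 rose to 227 ± 19.9 CPM in responders (SD, n = 2), against 86.2 ± 9.72 CPM in control tumours (SD, n = 3; log2 fold change 1.40, SE 0.21, edgeR FDR 0.0305). Tap1, a subunit of the peptide transporter, rose to 623 ± 20.1 CPM in responders, against 280 ± 19.7 CPM in control tumours (1.15, SE 0.20, edgeR FDR 0.0424). No gene of any kind passed this comparison without control 1, 6 passed without control 3, 33 without responder 3 and 107 without control 2, so calls in this comparison rest on single tumours.

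Transcriptional control genes were mixed, with 16 of 21 above 0, a median log2 fold change of 0.18 and 5 higher at an unadjusted p under 0.05 between the arms. Over all genes 51.8% lay above 0, the median was 0.013 and 8.55% were higher at that p. Nlrc5, the class I transactivator, stood at 259, 292, 257, 199 and 248 CPM in responders 1 and 3, the unmarked tumour and non-responders 1 and 2, against 139, 98.4 and 170 CPM in control tumours. All 5 Smyd3 ASO tumours exceeded the controls, with a log2 fold change of 0.89 (SE 0.19, edgeR FDR 0.0962). Such a separation in this direction held for 5.45% of all genes. The interferon-induced factor Irf1 had 343 ± 72.5 CPM in Smyd3 ASO tumours and 181 ± 14.9 CPM in control tumours (0.92, edgeR FDR 0.0939). In responders against control ASO Irf1 rose past the threshold (log2 fold change 1.13, edgeR FDR 0.032), while Nlrc5 did not (1.02, edgeR FDR 0.0887).

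The list of interferons and their receptors, which also holds signalling genes such as Jak1 and Socs1, showed 6 of 9 tested genes above 0 and a median of 0.10. Ifng, the gene of interferon gamma, had 2.19, 3.55, 2.10, 0.967 and 1.70 CPM in the Smyd3 ASO tumours in the order used above, against 0.624, 0.892 and 0.463 CPM in control tumours. The arms did not overlap (log2 fold change 1.67, edgeR FDR 0.149), which held for 5.45% of all genes in this direction. Non-responder 1 was lowest among the Smyd3 ASO tumours for Ifng. Socs1, a feedback inhibitor of interferon signalling, had 10.6 ± 1.68 CPM in Smyd3 ASO tumours and 5.50 ± 1.28 CPM in control tumours (0.94, edgeR FDR 0.103). Jak1 had a log2 fold change of −0.15 (edgeR FDR 0.500).

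Receptors that bind class I molecules lay above 0 in 14 of 16 tested genes, with a median log2 fold change of 0.64 and 5 higher at an unadjusted p under 0.05, against 51.8%, 0.013 and 8.55% over all genes. Cd8a, a chain of the CD8 co-receptor, had 17.7, 39.5, 17.9, 7.74 and 16.5 CPM in Smyd3 ASO tumours, against 3.99, 6.69 and 5.05 CPM in control tumours (1.92, edgeR FDR 0.130). Cd8b1, the other chain, had 7.05 ± 4.70 CPM in Smyd3 ASO tumours and 1.92 ± 0.453 CPM in control tumours (1.88, edgeR FDR 0.187). Klrd1, the CD94 chain of the receptors for Qa-1, had 3.43 ± 1.87 CPM in Smyd3 ASO tumours and 0.962 ± 0.563 CPM in control tumours (1.83, edgeR FDR 0.196).

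Genes of class I turnover and traffic gave 9 of 12 above 0 with a median of 0.11. Syvn1, a ubiquitin ligase that disposes of misfolded proteins of the endoplasmic reticulum, had 80.8 ± 10.2 CPM in Smyd3 ASO tumours and 61.8 ± 9.64 CPM in control tumours (0.39, edgeR FDR 0.258). Derl2, of the same disposal route, had 66.9 ± 5.25 CPM in Smyd3 ASO tumours and 57.6 ± 1.71 CPM in control tumours (0.22, edgeR FDR 0.296). The ubiquitin ligase March9 was lower, at 10.4 ± 1.63 CPM in Smyd3 ASO tumours and 13.9 ± 2.03 CPM in control tumours (−0.41, edgeR FDR 0.296).

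**Figure D4:**
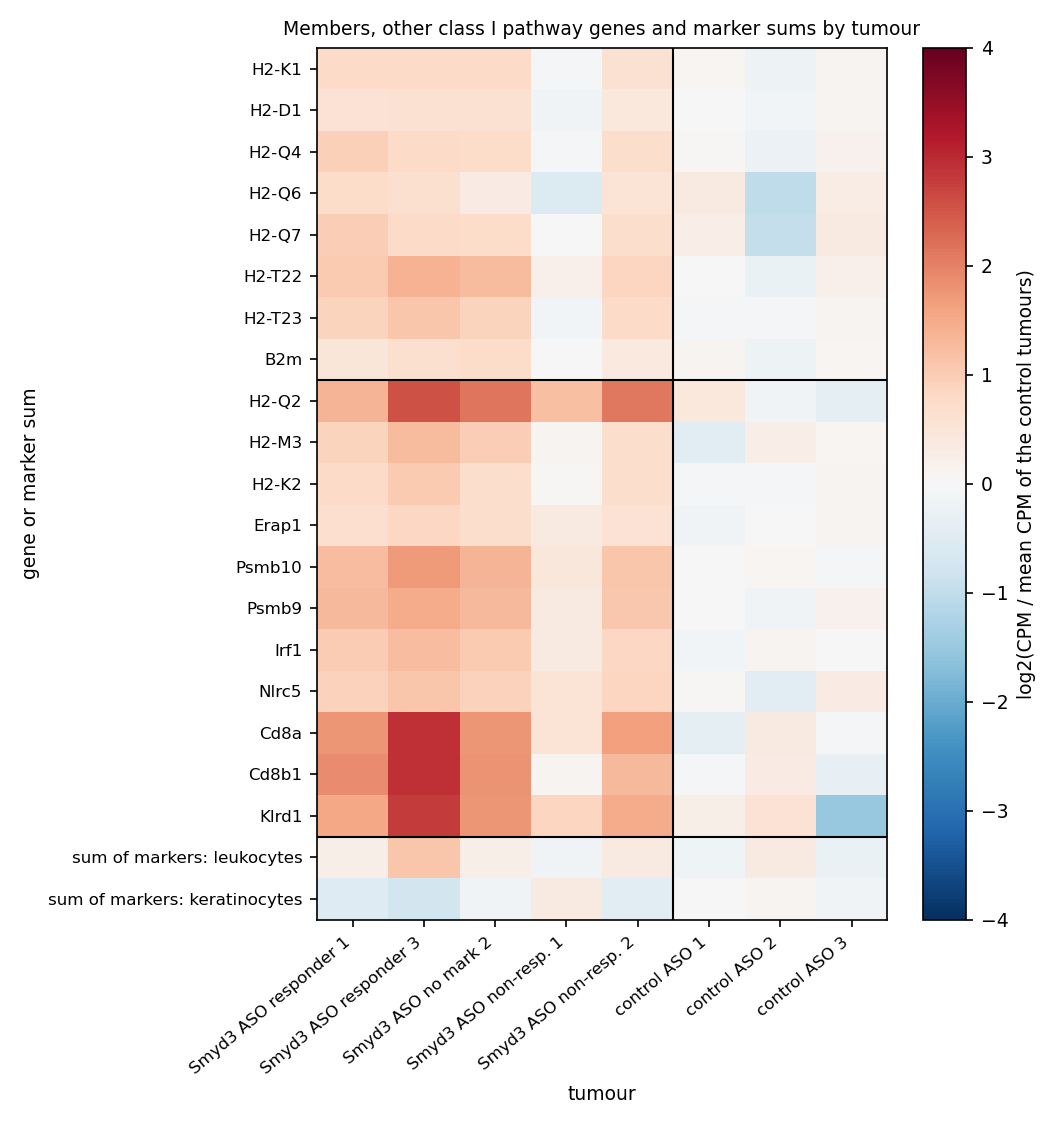
Log2 ratio of CPM to the mean of the control tumours (colour scale from −4 to 4) in each tumour (x axis, Smyd3 ASO left of control ASO) for the 8 class I genes, 11 named genes of the other lists and the summed leukocyte and keratinocyte markers (y axis). Horizontal lines part these blocks. Non-responder 1 is pale across the class I genes, control 2 is low for H2-Q6 and H2-Q7, and Cd8a is highest in responder 3 (39.5 CPM).

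Cell type markers moved with the arms to different degrees, and their part in the class I values was not tested. The 5 leukocyte markers summed to 285 to 682 CPM in Smyd3 ASO tumours and 265 to 401 CPM in control tumours, with Cd52 at a log2 fold change of 0.57 (edgeR FDR 0.417). T cell markers summed to 18.5 to 97.9 CPM in Smyd3 ASO tumours and 11.9 to 25.3 CPM in control tumours (6 of 6 above 0, Cd3d 1.92, edgeR FDR 0.124). Cytotoxic markers summed to 26.4 to 137 CPM in Smyd3 ASO tumours and 13.6 to 25.5 CPM in control tumours (5 of 5 above 0, Gzmb 2.28, edgeR FDR 0.130). These sums only just did not overlap, with 26.4 CPM in non-responder 1 and 25.5 CPM in control 2. In 2 of the 5 cytotoxic genes the arms did not overlap, against 5.45% of all genes in this direction. Non-responder 1 was the lowest of the Smyd3 ASO tumours for the leukocyte, T cell and cytotoxic sums, as it was for all 8 class I genes. It was also lowest for the macrophage (446 CPM), B cell (1.01), endothelial (162), skeletal muscle (525) and adipocyte (1.43) sums. Its keratinocyte sum was the highest of the Smyd3 ASO tumours (40317 CPM), and its dendritic cell and fibroblast sums were not the lowest.

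Antigen-presenting cells, which are rich in class I, showed sums that overlapped between the arms, for dendritic cells only through control 2. Macrophage markers summed to 446 to 1050 CPM in Smyd3 ASO tumours and 476 to 846 CPM in control tumours (4 of 5 above 0, Adgre1 0.29, edgeR FDR 0.794). Dendritic cell markers summed to 10.6 to 27.3 CPM in Smyd3 ASO tumours and 5.09 to 12.5 CPM in control tumours (5 of 5 above 0, Flt3 1.66, edgeR FDR 0.196). Control 2 had the 12.5 CPM, and controls 1 and 3 lay below every Smyd3 ASO tumour. Of the 5 dendritic cell markers, 3 were higher at an unadjusted edgeR p under 0.05, against 8.55% of all genes. In 2 of them the arms did not overlap, against 5.45% of all genes in this direction. B cell markers summed to 1.01 to 11.4 CPM in Smyd3 ASO tumours and 1.41 to 2.54 CPM in control tumours (4 of 4 above 0, Cd79a 2.56, edgeR FDR 0.354), and Ms4a1 was at 0 in 1 control.

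The 6 fibroblast markers did not move together. They summed to 3019 to 3585 CPM in Smyd3 ASO tumours and 4800 to 8248 CPM in control tumours, without overlap, but Col1a1 and Col1a2 make up nearly all of this sum. These collagen genes and Pdgfrb lay below 0 with an unadjusted p under 0.05 in edgeR (Pdgfrb −1.003, edgeR FDR 0.0656), as did 1184 of all 16911 genes. Pdgfra (0.43, edgeR FDR 0.617), Dcn (0.26, edgeR FDR 0.892) and Lum (0.43, edgeR FDR 0.783) lay above 0 with arms that overlapped. Endothelial markers summed to 162 to 308 CPM in Smyd3 ASO tumours and 239 to 421 CPM in control tumours (4 of 5 below 0, Flt1 −0.75, edgeR FDR 0.153). Keratinocyte markers lay below 0 in 5 of 6 cases (Dsp −0.45, edgeR FDR 0.336).

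Skeletal muscle markers summed to 525 to 9164 CPM in Smyd3 ASO tumours and 31.1 to 78.7 CPM in control tumours. All 8 were separated between the arms, against 5.45% of all genes in this direction (Myh1 4.47, edgeR FDR 0.0656). Adipocyte markers summed to 1.43 to 106 CPM in Smyd3 ASO tumours and 0.357 to 0.457 CPM in control tumours (Plin4 5.39, edgeR FDR 0.145), with Lep at 0 in all 3 controls. Muscle content and treatment arm cannot be told apart in these tumours.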

How the data were processed

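PolyA RNA of 8 tumours was sequenced from stranded libraries (TruSeq Stranded mRNA kit), per the labels' protocols. The authors deposited 1 table of RSEM expected counts per gene, not scaled to library size. Per the submitters' processing notes, bcl2fastq 2.17, cutadapt 1.18, STAR 2.7.0f, RSEM 1.3.0 and the mm10 build were used; their settings, the annotation and whether counting used strand are not given in the sources used here. All 55450 identifiers matched GENCODE M21. The labels' tissue field names the tongue, while the design text has the tumours in the flank. Whether each library stands for a separate mouse is stated only through the sample titles, so p-values measure the spread between these samples.

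Columns were matched to tumours through the descriptions in the labels, and groups were taken from titles and response marks. Expected counts were rounded. Genes with at least 0.424 CPM (10 reads in the median library) in 2 libraries and 15 reads in total were kept, which left 16911 genes with 99.93% of the counts. TMM factors were 0.964 to 1.04. The lowest expected count of the 8 genes in any library was 2313, for H2-Q6 in control 2, so that counting error is small beside the spread between tumours. Two-sided quasi-likelihood tests (edgeR 4.0.16, R 4.3.3, Benjamini-Hochberg over all genes, threshold 0.05) used the arm as the only term for Smyd3 ASO against control ASO, and a 4-group model over all 8 libraries for the other 3 contrasts. The steps were tested on simulated counts. Lists were described by counts and medians without a set test. Levels per length used the union of annotated exons. Alternatives were DESeq2 1.42.0, limma 3.58.1 voom with and without quality weights, RLE and upper-quartile factors, no filter, H2-Q6 and H2-Q7 summed, a replicate block, each library left out, coding length, and no length.

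The genes named are the 8 class I genes, Smyd3, up to 3 genes per list with the smallest p between the arms, and the 5 nearest profiles of H2-K1, H2-T23, H2-Q7 and B2m. The genes and lists were chosen with earlier results of these data known. H2-Q5, H2-T10, Tap1, Psmb8 and Psme2 are named outside this rule, after their values were seen. Some genes that these rules name are not reported here, although list counts include every member. Protein sequences were not used here.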

Additional observations from a re-analysis of the deposited data

Results flagged for a closer look

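H2-K1 in non-responder 1 stood at 1807 CPM, far from the other 4 Smyd3 ASO tumours, which lay between 2925 and 3291 CPM. Its gap to the nearest of them was large for a group of 5 by Dixon's criterion. The criterion was applied to 16 groups of values, and chance alone marks about 1 group in 20. The same tumour was the lowest of the 5 for the other 7 genes as well, without passing the criterion there.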

How the results depend on the processing

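The count of class I genes past the FDR threshold in Smyd3 ASO against control ASO was 0 and became 3 with DESeq2 (of 1053 genes called) and 2 with a replicate block over the 6 numbered tumours (245 genes), where the same 6 tumours without the block gave 5 (286 genes). An exact permutation test put 1 of the 8, H2-T22, under an unadjusted 0.05. It can do so only where the arms do not overlap, as for 921 genes higher and 870 lower among the 16911 tested. Leaving out 1 tumour gave 0 to 5. In responders against control ASO the count was 0 and became 2 without the low-count filter (499 genes called), 6 with DESeq2 (1153 genes) and 4 with the replicate block (797 genes), with 0 to 1 when 1 tumour was left out. There 280 genes were called in all, against 135 with voom, 107 without control 2, 6 without control 3, 0 without control 1, 33 without responder 3, and 169 and 134 without non-responders 1 and 2. Between the arms no gene was called in the main test, against 52 without the filter, 153 with voom quality weights and 5 without control 1. Both other comparisons called none of the 8 in any setting, although DESeq2 called 225 genes in responders against non-responders and 339 in non-responders against control ASO. Without the filter these were 7 and 32, and 21 in responders against non-responders without responder 1. At an unadjusted p under 0.05 edgeR had 6 of the 8 between the arms and in responders against control ASO, and 1 in each of the other comparisons.

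The log2 fold changes of the 8 genes stayed above 0 under every setting run in the comparisons other than non-responders against control ASO. In non-responders against control ASO, leaving out 1 tumour gave log2 fold changes of −0.090 to 0.61 for H2-K1, −0.15 to 0.41 for H2-D1, −0.065 to 0.69 for H2-Q4, −0.55 to 0.53 for H2-Q6, −0.023 to 0.72 for H2-Q7 and −0.11 to 0.76 for H2-T23, lowest without non-responder 2. H2-Q6 also turned to −0.22 without control 2 and −0.13 with voom quality weights. The cause was not tested. Summed without dividing by length, non-classical chains stood at 47.2 per 100 classical in Smyd3 ASO tumours in place of 42.4, and B2m at 36.3 per 100 heavy chains in Smyd3 ASO tumours and 38.9 in control tumours in place of 121 and 128; the short B2m transcript makes this shift by construction. Without control 2, whose left-out values for these ratios were added after seeing the data, H2-Q6 and H2-Q7 averaged 18.1 and 19.5 per 100 of H2-K1 in control tumours, in place of 14.97 and 16.3. Same-numbered tumours did not deviate together (r of −0.038, 0.00069 and 0.085 across genes), so the numbers were not taken as pairs.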
